A study of Arabidopsis thaliana with 6 samples.

Results

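The 8 genes described here encode kinases through which a plant cell senses the state of its own wall: ANX1 (AT3G04690), ANX2 (AT5G28680), BUPS1 (AT4G39110), BUPS2 (AT2G21480), MARIS (AT2G41970), FER (AT3G51550), HERK1 (AT3G46290) and THE1 (AT5G54380). They were chosen by gene identifier, and all 8 were found among the 33037 genes of the deposited tables and passed the filter on low counts that left 21196 genes. Of these 8 genes, 7 encode CrRLK1L proteins (Catharanthus roseus receptor-like kinase 1-like), which carry a malectin-like domain outside the cell, a membrane span and a kinase inside. MARIS is a receptor-like cytoplasmic kinase without that outer domain and is listed with them because it works downstream of them.

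The libraries were made from total RNA of closed buds of Arabidopsis thaliana plants, either wild type or naa50-1, with 3 biological replicates a genotype by the series design. NAA50 encodes a protein N-terminal acetyltransferase, which the series title links to degradation of the tapetum, the anther layer that feeds the pollen. The labels give genotype and tissue but no plant age, accession or description of the lesion in naa50-1, and each library holds whole buds with all their organs. The libraries held 19727584 to 20813563 counts.

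The NAA50 transcript itself was higher in the libraries labelled naa50-1. NAA50 had a mean of 26.3 ± 2.39 CPM (counts scaled by library size; SD, n = 3) in the 3 wild-type libraries and of 2680 ± 295 CPM in those labelled naa50-1, a log2 fold change of 6.67 (SE 0.19, edgeR quasi-likelihood test, adjusted p = 6.5e-08). The labels do not describe the lesion in naa50-1, and neither it nor the labelling was tested as the source of this rise. Every direction given below is between the wild type and the libraries labelled naa50-1. The floral part of the tissue label was met by 5 of 5 floral organ identity genes (AP1, AP3, PI, AG and SEP3), each above 46 FPKM in every library. They do not tell closed buds from other floral stages. Of the 5, 0 passed the edgeR test or had an unadjusted p under 0.05. AP3 had the smallest p of them (log2 fold change 0.22, adjusted p = 0.494). Wild type replicate 2 stood apart from the other wild-type libraries: the chi-square per degree of freedom was 28.2 and 23.9 against them and 12.9 between them. For the 8 kinases, the called neighbours of ANX1 and ANX2, the called relatives and the pollen marker sum, values are also given without it.

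A pollen tube grows by building wall at its tip, and it must keep that wall from bursting until it reaches the ovule. ANX1, ANX2, BUPS1 and BUPS2 form receptor complexes at the tip that bind the secreted peptides RALF4 and RALF19, together with the membrane-anchored LLG2 and LLG3 and the wall-bound LRX proteins. The signal runs through MARIS, the NADPH oxidases RBOHH and RBOHJ, and calcium entry that involves MLO proteins and the channel CNGC18. FER, HERK1 and THE1 are relatives that work mainly outside pollen: FER in growth, immunity and reception of the pollen tube by the ovule, HERK1 with it in cell growth and reception, and THE1 in the response to a weakened cell wall.

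The receptors of pollen are 2 pairs of close paralogs. ANX1 and ANX2 were identical at 80.9% of 2553 aligned coding bases and BUPS1 and BUPS2 at 82.4% of 2616, whereas coding sequences of CrRLK1L members from different pairs matched at 58.6% to 62.3%. The most alike stretch of 90 coding bases in each pair is shown because it is where a short read would be hardest to assign; capitals mark the bases that differ, and each sequence reads 5′ to 3′ on the coding, minus strand of TAIR10.1. ANX1 lies at chr3:1274217-1274306, ANX2 at chr5:10720280-10720369, BUPS1 at chr4:18223704-18223793 and BUPS2 at chr2:9203956-9204045.
ANX1: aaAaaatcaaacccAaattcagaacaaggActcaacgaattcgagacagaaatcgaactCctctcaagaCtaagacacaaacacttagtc
ANX2: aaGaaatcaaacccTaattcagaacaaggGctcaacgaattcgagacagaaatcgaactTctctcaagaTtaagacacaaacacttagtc
BUPS1: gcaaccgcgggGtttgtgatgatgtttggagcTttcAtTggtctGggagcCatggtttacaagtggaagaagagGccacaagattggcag
BUPS2: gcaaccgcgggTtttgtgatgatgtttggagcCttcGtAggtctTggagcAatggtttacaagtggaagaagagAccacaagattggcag
Even here the ANX genes differed at 5 bases and the BUPS genes at 7. Along the exons of each of the 8 genes, 0 windows of 50 bases recurred on either strand of the genome. The longest run of identical coding bases was 29 in both pairs.

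The gene models differ in form. The 7 receptor genes each hold their coding sequence in 1 exon and encode 830 (HERK1) to 895 (FER) residues. MARIS (chromosome 2, 17520273 to 17522793, minus strand) is split into 7 coding exons and encodes 365 residues, the length of a kinase without an outer domain. ANX1 (chromosome 3, 1273057 to 1276945, minus strand) has 1007 exonic bases before its coding sequence, against 252 in ANX2 (chromosome 5, 10719127 to 10722361, minus strand). BUPS1 spans 18221993 to 18225238 of chromosome 4 and BUPS2 spans 9202494 to 9205471 of chromosome 2, both on the minus strand.

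In the libraries labelled naa50-1, 4 of the 8 genes were lower past the threshold (ANX2, BUPS1, BUPS2 and MARIS) and 0 were higher. Of all genes tested, 9.53% were called in either direction, 5.59% lower and 3.94% higher. The 8 genes were chosen with earlier results of these data known. ANX2, at 0 counts in the libraries labelled naa50-1, passed the filter only through the wild type. The median log2 fold change was -1.64 over the 8 genes, also with ANX2 at its bound, and -0.01 over all genes tested. The 4 called genes are pollen tube genes, and the remaining pollen tube gene, ANX1, did not pass. FER, HERK1 and THE1 did not pass, and their groups overlapped.

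**Figure D1:**
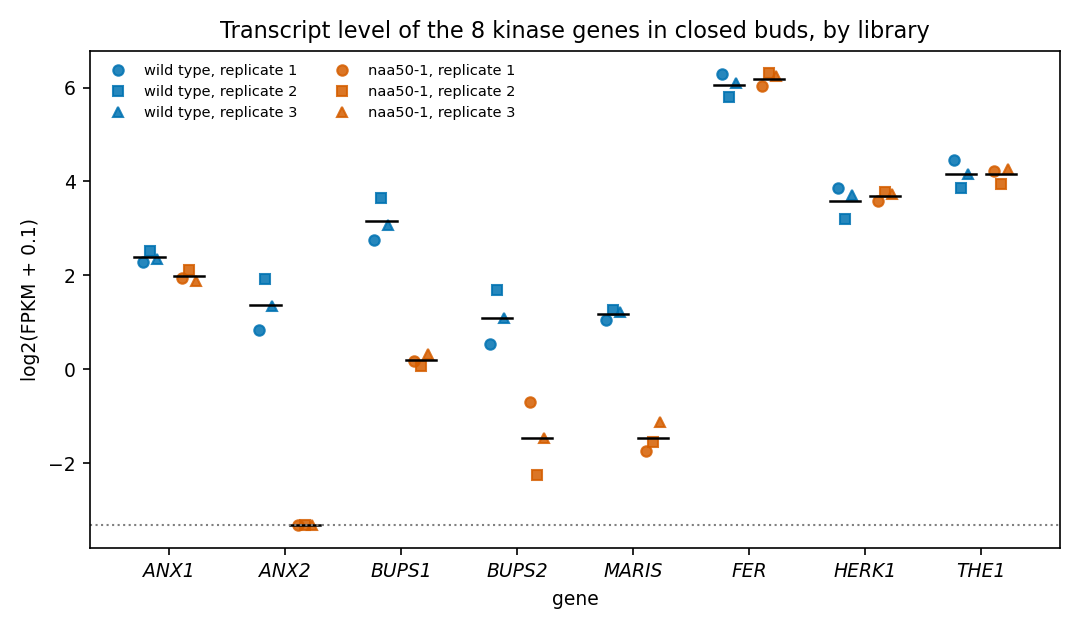
Transcript level of each of the 8 kinase genes as log2(FPKM + 0.1), with 1 point per library, colour for genotype label, shape for replicate number and a bar for the mean of the 3 points; the dotted line is the level of 0 FPKM. ANX2 lies on that line in the 3 libraries labelled naa50-1, BUPS1, BUPS2 and MARIS lie below the wild type without overlap, ANX1 lies slightly below, and FER, HERK1 and THE1 overlap.

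ANX2 was the gene with no reads left. It had 106, 242 and 150 counts in wild type replicates 1 to 3 and 0 in each library labelled naa50-1, that is 1.69, 3.71 and 2.43 FPKM (fragments scaled by transcript length and by library, a level per length) against 0. Its wild-type mean of 8.26 ± 3.28 CPM (SD, n = 3) was at least 167-fold above the floor of 3 counts over the group (edgeR quasi-likelihood test, adjusted p = 9.88e-05). The highest wild-type value, that of replicate 2, was 1.82 times the mean of replicates 1 and 3, and without it the gene was at least 127-fold lower (adjusted p = 0.000305). With naa50-1 replicate 2 left out the bound was 110-fold, since the floor of 3 counts is then spread over fewer libraries.

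ANX1, the paralog that shares with ANX2 the task of keeping the tube intact, kept most of its reads. It had 363, 446 and 375 counts in the wild type, against 287, 341 and 281 in the libraries labelled naa50-1, or 4.78, 5.64 and 5.01 FPKM against 3.76, 4.22 and 3.58 FPKM. The groups did not overlap, as in 13.3% of all genes tested with naa50-1 lower. The mean moved from 19.7 ± 1.84 to 14.7 ± 1.24 CPM (SD, n = 3), a log2 fold change of -0.42 with a 95% interval of -0.71 to -0.13, and the edgeR quasi-likelihood test gave an adjusted p of 0.0849. Without wild type replicate 2 the value was -0.34. ANX1 and ANX2 thus stood at 909 and 0 counts in the same 3 libraries.

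As a share of the counts of the pair, ANX1 held 77.4% (95% exact binomial interval 73.3% to 81.1%), 64.8% (61.1% to 68.4%) and 71.4% (67.4% to 75.3%) in wild type replicates 1 to 3. In the libraries labelled naa50-1 its share was 100%, with lower bounds of 98.7%, 98.9% and 98.7%. These intervals leave out variation between libraries, and those of wild type replicates 1 and 2 did not overlap. Reads without molecular tags are not independent molecules, so the intervals may be too narrow even for counting error. Per length, ANX1 exceeded ANX2 in the wild type by 2.82, 1.52 and 2.06 times.

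The ANX1 locus is shared with other genes. The first 278 exonic bases of ANX1, 7.30% of its exonic length, are also exonic in AT3G04710 (TPR10) and AT3G04700 on the opposite strand. No strand setting is given in the sources used here, so reads of these genes cannot be told apart over those bases. TPR10 and AT3G04700 run on the same strand and share their whole first exon, -498 to 277 bases from the annotated start of ANX1. How reads of that exon were assigned between them is not given, so its part in the AT3G04700 counts below is not known. TPR10 had 541, 527 and 482 counts in the wild type, against 616, 565 and 452 in the libraries labelled naa50-1, with a log2 fold change of 0.04 (SE 0.13). AT3G04700 had 27, 70 and 39 counts against 16, 16 and 12, and was called lower (log2 fold change -1.65, SE 0.41, adjusted p = 0.033 by edgeR). That call was lost when wild type replicate 2 (log2 fold change -1.22, adjusted p = 0.109), wild type replicate 3 or any 1 library of the naa50-1 label was omitted (adjusted p from 0.0714 to 0.123). It was also lost with limma-voom, both limma tests on log2(FPKM + 1) and the replicate block, so 7 of 16 alternatives kept it. Whether this overlap has a part in the ANX1 counts was not tested.

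Next to ANX2, 333 bases beyond its annotated start on the opposite strand, lies AT5G28690. It had 25, 261 and 152 counts in the wild type, against 0 in each library labelled naa50-1, at least 147-fold lower on the same floor of 3 counts over the group (adjusted p = 0.00462 by edgeR). Without wild type replicate 2, which held most of its reads, the bound was 88.0-fold (adjusted p = 0.0113), and without naa50-1 replicate 2 it was 96.9-fold. AT5G28690 was called lower under 15 of 16 alternatives, and not by limma on log2(FPKM + 1) without the filter (adjusted p = 0.0708). Its 579 coding bases and the 576 of AT3G04700 aligned over 564 bases, of which 76.1% were identical, so that each ANX gene faces 1 of a pair of alike genes. These neighbours were looked up after their values had been seen. No exonic base is shared between ANX2 and AT5G28690.

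**Figure D2:**
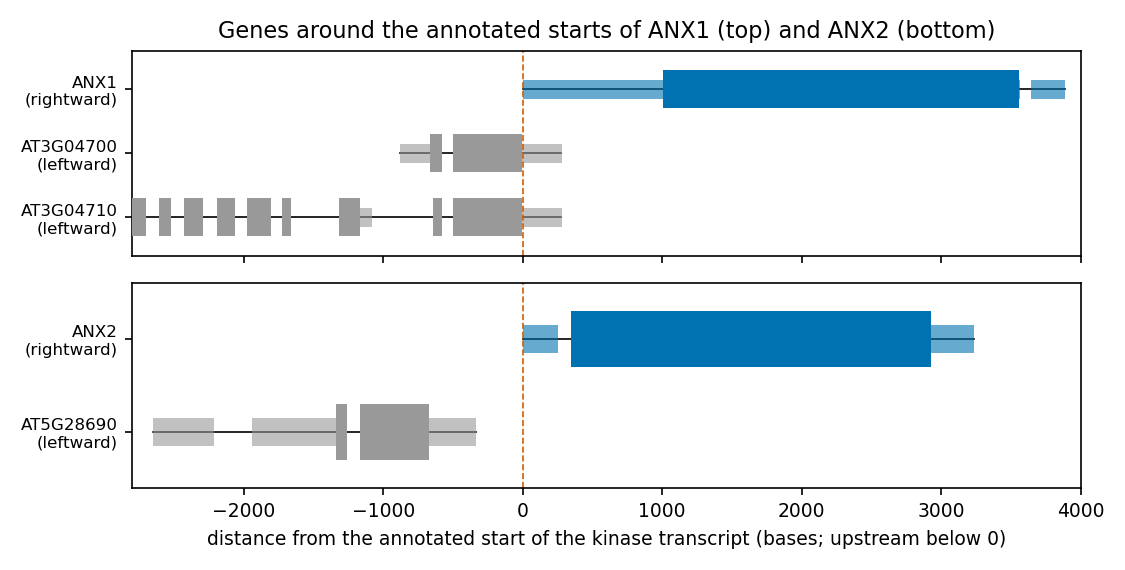
Exons (thin boxes) and coding sequence (thick boxes) around the annotated starts of ANX1 and ANX2, drawn in the direction of the kinase gene, with distance from its start in bases on the horizontal axis. The neighbours AT3G04700 and AT3G04710 run leftward and cover the first 278 exonic bases of ANX1, whereas AT5G28690 starts 333 bases before the start of ANX2 and runs away from it.

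BUPS1, the receptor that pairs with the ANX proteins at the tube tip, had 429, 843 and 531 counts in the wild type, against 67, 65 and 77 in the libraries labelled naa50-1. Its level fell from 6.62, 12.5 and 8.32 FPKM to 1.03, 0.944 and 1.15 FPKM. All 3 wild-type values lay above the others, and the libraries labelled naa50-1 were close to each other. The mean went from 29.9 ± 10.1 to 3.39 ± 0.343 CPM (SD, n = 3), 8.82-fold lower, with a log2 fold change of -3.14 (SE 0.25, edgeR adjusted p = 2.8e-05). Wild type replicate 2 stood at 1.69 times the mean of replicates 1 and 3, and without it the log2 fold change was -2.84. An unannotated transcript 581 bases from BUPS1 on the same strand was also called lower (log2 fold change -1.03, SE 0.21, edgeR adjusted p = 0.0111). It had 211, 317 and 193 counts in the wild type, against 106, 142 and 113 in the libraries labelled naa50-1.

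BUPS2, its paralog and partner, had 80, 192 and 119 counts in the wild type, against 31, 7 and 16 in the libraries labelled naa50-1, or 1.35, 3.10 and 2.03 FPKM against 0.519, 0.111 and 0.261 FPKM. The groups did not overlap, but the lower group was spread over a wide range, with replicate 1 the highest. From 6.48 ± 2.70 to 0.887 ± 0.619 CPM (SD, n = 3) the gene was 7.30-fold lower, with a log2 fold change of -2.87 (SE 0.50, edgeR adjusted p = 0.00426). Leaving out naa50-1 replicate 1 moved it to -3.53, and leaving out wild type replicate 2 to -2.51.

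Both genes of the BUPS pair kept reads in all 6 libraries. BUPS1 held 84.3%, 81.5% and 81.7% of the pair's counts in the wild type. In the libraries labelled naa50-1 it held 68.4% (95% exact interval 58.2% to 77.4%), 90.3% (81.0% to 96.0%) and 82.8% (73.6% to 89.8%). The last 3 values span the wild-type ones on both sides, and no test of the difference between the pairs was made.

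MARIS, the cytoplasmic kinase below the receptors, had 69, 83 and 77 counts in the wild type, against 7, 9 and 13 in the libraries labelled naa50-1. Per length this was 1.98, 2.28 and 2.24 FPKM against 0.200, 0.243 and 0.361 FPKM, with a clear gap between the groups and little spread in the wild type. The mean of 3.81 ± 0.316 CPM fell to 0.469 ± 0.146 CPM (SD, n = 3), 8.12-fold lower, with a log2 fold change of -3.00 (SE 0.33, edgeR adjusted p = 0.000217), or -2.96 without wild type replicate 2. Unlike the 3 called receptors, MARIS was not much higher in wild type replicate 2 (1.10 times the mean of replicates 1 and 3).

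Among the receptors of the plant body, FER was the most abundant of the 8 genes in every library. It had 4980, 3687 and 4284 counts in the wild type, against 4180, 5332 and 4968 in the libraries labelled naa50-1, or 78.2, 55.6 and 68.3 FPKM against 65.3, 78.8 and 75.6 FPKM. The groups overlapped, and the lowest value was that of wild type replicate 2. The log2 fold change of 0.12 had a 95% interval of -0.20 to 0.44 (edgeR adjusted p = 0.754), and without that library it was 0.00.

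HERK1 had 942, 612 and 831 counts against 775, 938 and 885, or 14.5, 9.03 and 12.96 FPKM against 11.9, 13.6 and 13.2 FPKM. Its log2 fold change was 0.08 with an interval of -0.27 to 0.43 (edgeR adjusted p = 0.87). HERK1 also shares 109 and 469 exonic bases with the opposite-strand genes AT3G46300 and AT3G07375, which had at most 3 counts in any library. Again wild type replicate 2 was the lowest library, and without it the value was -0.09. THE1 had 1433, 996 and 1152 counts against 1237, 1069 and 1307, or 21.7, 14.5 and 17.7 FPKM against 18.7, 15.3 and 19.2 FPKM. For it, the log2 fold change was -0.03, with an interval of -0.36 to 0.31 (edgeR adjusted p = 0.961), and it was -0.16 without wild type replicate 2; the groups overlapped. A p above the threshold does not show that these 3 genes were alike in both groups, but the intervals leave room for differences of at most 0.44 on the log2 scale.

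The order of the levels per length changed between the groups. In the wild type FER led with 67.3 ± 11.3 FPKM (SD, n = 3), followed by THE1 with 18.0 ± 3.62, HERK1 with 12.2 ± 2.81, BUPS1 with 9.14 ± 3.02, ANX1 with 5.14 ± 0.445, ANX2 with 2.61 ± 1.02, MARIS with 2.17 ± 0.166 and BUPS2 with 2.16 ± 0.885. The values of HERK1 and BUPS1 overlapped, as did those of ANX2, MARIS and BUPS2, and the lowest value of THE1 (14.51 FPKM) was next to the highest of HERK1 (14.47 FPKM). In the libraries labelled naa50-1 the order was FER (73.2 ± 7.06 FPKM), THE1 (17.7 ± 2.14), HERK1 (12.9 ± 0.903), ANX1 (3.86 ± 0.332), BUPS1 (1.04 ± 0.104), BUPS2 (0.297 ± 0.206), MARIS (0.268 ± 0.0835) and ANX2 (0). Among neighbours in that order, BUPS2 and MARIS overlapped there and no others did. BUPS1 was above ANX1 in the 3 wild-type libraries and below it in the 3 others. FER exceeded BUPS1 by 11.8, 4.45 and 8.21 times in the wild type, against 63.5, 83.4 and 65.6 times in the libraries labelled naa50-1.

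The authors' deposited table gives nearly the same sizes for the 8 genes: -0.42 for ANX1, -9.84 for ANX2, -3.13 for BUPS1, -2.87 for BUPS2, -3.02 for MARIS, 0.12 for FER, 0.08 for HERK1 and -0.02 for THE1. In the authors' deposited table the adjusted p of ANX1 is 0.0916, on the same side of 0.05.

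Genes with the most similar levels were looked up as those with the smallest root mean square difference in log2(FPKM + 0.1) over the 6 libraries, among 21188 genes. For ANX2 it was SNAP30 (AT1G13890; difference 0.08), a SNAP25 homolog of membrane fusion that was also listed at 0 FPKM in the 3 libraries labelled naa50-1. BUPS1 was nearest to AT1G79910 (0.18), BUPS2 to AT5G13600 (0.35) and MARIS to AT3G56600 (0.28), and each of these was called lower by edgeR. ANX1 was nearest to AT5G12970 (0.07), which had the same log2 fold change of -0.42 and was not called (adjusted p = 0.0925). FER was nearest to the proteasome subunit gene RPN2A (AT2G32730; 0.08), HERK1 to AT2G01190 (0.09) and THE1 to GATL8 (AT1G24170; 0.09), none of them called. All of these genes were picked on the same 6 libraries, so their like fold changes and calls follow from the choice and are no separate result.

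The other 10 CrRLK1L genes of the lists were mostly without a call. Of the 9 tested, 0 were lower and 1 was higher, a share near the 9.53% called over all genes, and their median log2 fold change was 0.33, against -0.01 over all genes tested. The called gene was MDS3 (AT5G39020), one of the MEDOS genes known from growth under metal ions, whose reads were not checked against those of its paralogs. It had 20, 23 and 23 counts in the wild type, against 75, 125 and 76 in the libraries labelled naa50-1, rising from 1.10 ± 0.0898 to 4.45 ± 1.25 CPM (SD, n = 3; log2 fold change 2.01, SE 0.30, edgeR adjusted p = 0.00161; 2.03 without wild type replicate 2). ERU, a receptor of root hair growth named here outside the rule, had 27, 53 and 30 counts against 22, 7 and 6 and did not pass (log2 fold change -1.66, 95% interval -2.86 to -0.47, adjusted p = 0.0946). Of the 14 alternatives that tested ERU, 2 called it lower: DESeq2, and the edgeR test without naa50-1 replicate 1 (log2 fold change -2.52, adjusted p = 0.016). Over all 17 CrRLK1L genes, 3 of 16 tested were lower and 1 higher, and the median log2 fold change was 0.04.

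MARIS belongs to a family of cytoplasmic kinases of which 10 relatives were looked up. Of 8 tested, 1 was lower and 0 were higher, a share near the 9.53% called over all genes, with a median log2 fold change of 0.00. The called gene, AT2G43230, had 149, 311 and 245 counts in the wild type, against 43, 38 and 41 in the libraries labelled naa50-1, without overlap. It fell from 11.7 ± 3.91 to 1.98 ± 0.181 CPM (SD, n = 3; log2 fold change -2.56, SE 0.28, edgeR adjusted p = 0.000221; -2.33 without wild type replicate 2).

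**Figure D3:**
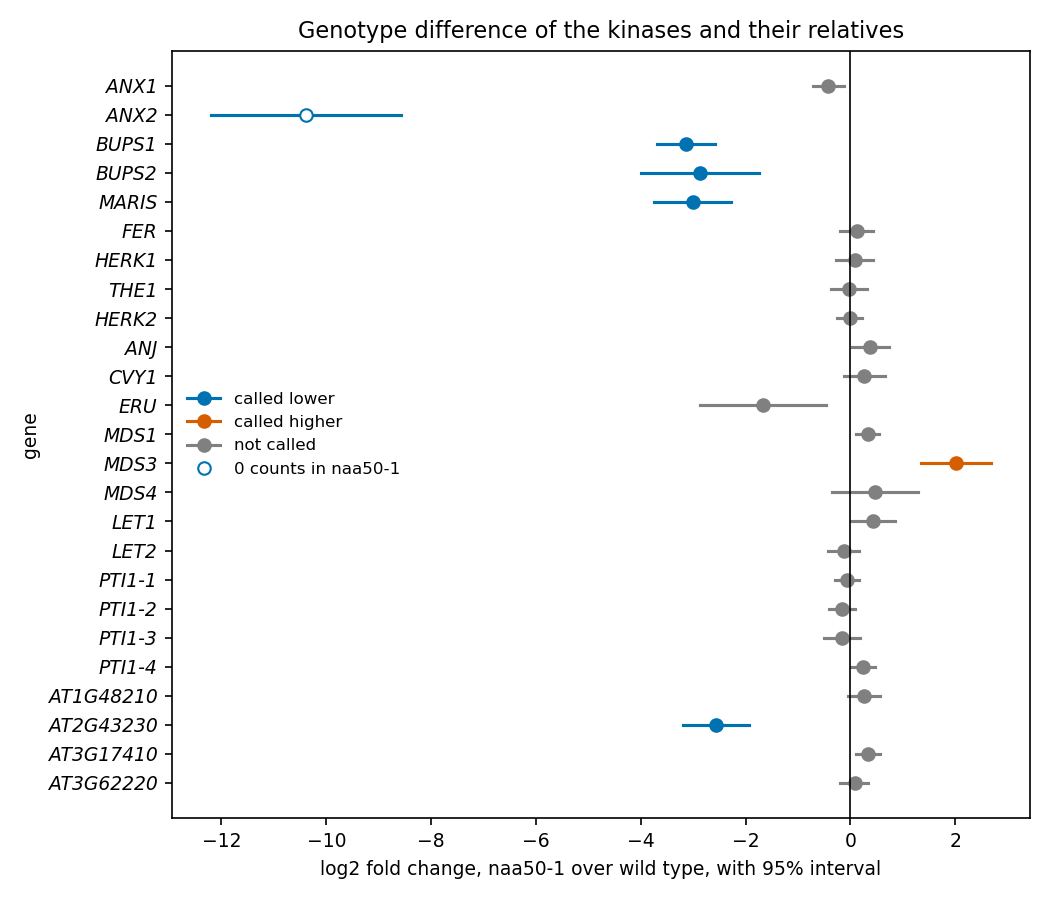
Fitted log2 fold change (naa50-1 over wild type, horizontal axis) with its 95% interval for the 8 kinases and for the tested CrRLK1L and MARIS relatives, 1 row per gene. ANX2 (open point, 0 counts in naa50-1) has a fitted value that depends on the prior count; ANX2, BUPS1, BUPS2, MARIS and AT2G43230 are called lower and MDS3 is called higher.

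Most partners of the receptors in the pollen tube were also lower. Of 14 such genes 13 were tested, and 11 were lower and 0 higher, against 5.59% lower and 3.94% higher over all genes tested. Their median log2 fold change was -5.19, or -4.49 with the genes at 0 counts set to their bound. Their summed level was 140.0 to 236.1 CPM in the wild type, against 40.7 to 45.2 CPM in the libraries labelled naa50-1, where 3 of the 14 were at 0 (RBOHH, RBOHJ and MLO9). The partner list was chosen with earlier results of these data known. Its genes at or near 0 counts in the libraries labelled naa50-1 passed the filter only through the wild type. Such genes could only come out lower, so the count of 11 is a description. RALF4, the peptide ligand, had 325, 574 and 353 counts in wild-type buds and 2, 0 and 1 in the libraries labelled naa50-1 (edgeR adjusted p = 2.31e-06). RALF19, the second ligand, had 219, 554 and 362 counts against 0, 6 and 0 (adjusted p = 5.19e-05). Without wild type replicate 2 the adjusted p was 6.29e-06 for RALF4 and 0.00023 for RALF19. All 6 RALF19 counts of the lower group came from naa50-1 replicate 2, and the fitted log2 fold change of RALF4 moved from -8.57 to -9.42 without naa50-1 replicate 1. Both ligands were at or near 0 in every library in which ANX1 kept 281 to 341 counts.

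Further down the pathway, RBOHH had 93, 104 and 96 counts against 0 in each library labelled naa50-1, at least 98.3-fold lower (edgeR adjusted p = 4.18e-05). MLO5, a membrane protein of calcium signalling in the tube, had 98, 110 and 92 counts against 1, 3 and 2 (adjusted p = 1.24e-05). Outside the rule for named genes, the wall-bound LRX8 and LRX9 and the channel CNGC18 fell by 2.02, 2.36 and 2.10 on the log2 scale and kept reads, like BUPS1, BUPS2 and MARIS. LRX11 had 110, 390 and 296 counts against 5, 8 and 9. LRX10 had 253, 756 and 449 counts against 8, 82 and 137 and was called lower (log2 fold change -2.72, adjusted p = 0.0252), a call that 5 of 16 alternatives lost, those without wild type replicate 2, wild type replicate 3 and naa50-1 replicate 2 among them (adjusted p up to 0.0848); without naa50-1 replicate 3 it was -3.48. The co-receptor LLG2 and the phosphatase AUN1, which restrains the pathway, did not pass (log2 fold changes -0.28 and 0.01, adjusted p = 0.542 and 0.972).

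**Figure D4:**
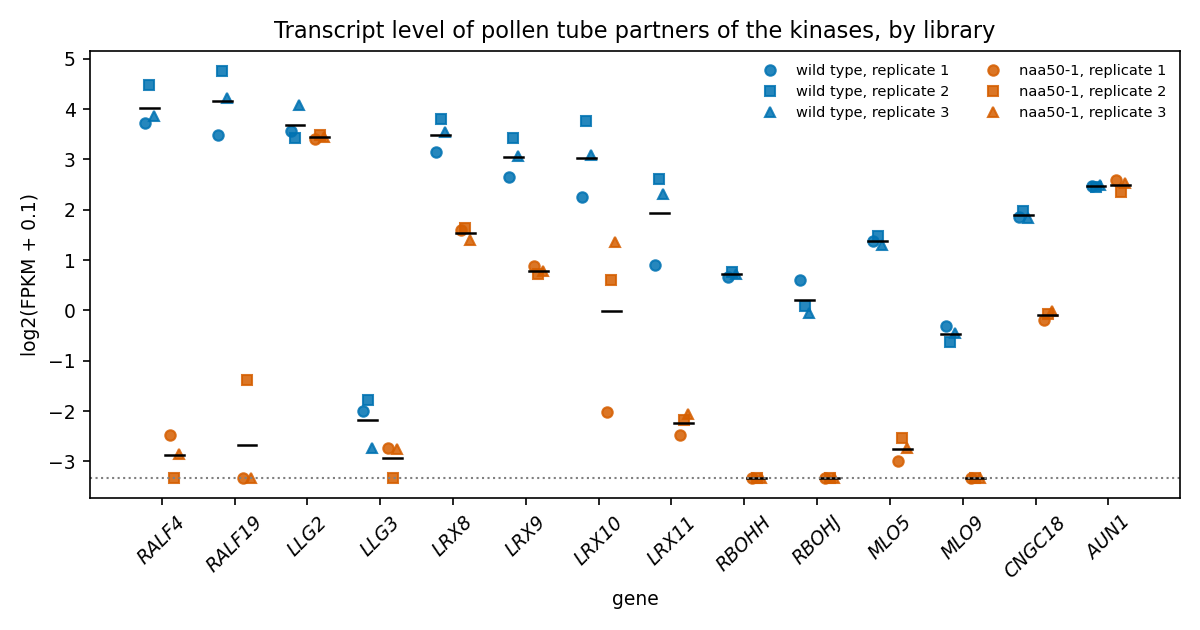
Transcript level of the 14 pollen tube partners as log2(FPKM + 0.1), with 1 point per library, colour for genotype label, shape for replicate number and a bar for the mean of the 3 points; the dotted line is the level of 0 FPKM. The 3 libraries labelled naa50-1 lie on or near that line for both RALF ligands, both RBOH oxidases and both MLO genes, at intermediate levels for LRX8, LRX9 and CNGC18, and overlap the wild-type values for LLG2 and AUN1.

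Of 17 partners of FER, HERK1 and THE1 in the plant body 16 were tested, with 0 lower and 0 higher by edgeR, against 9.53% called over all genes, and a median log2 fold change of 0.18. RALF1, the FER ligand, had the smallest p of them (log2 fold change 0.61, adjusted p = 0.112), and it was called higher with the replicate block and without naa50-1 replicate 2 (adjusted p down to 0.0339). RALF33, named outside the rule, was called higher without wild type replicate 3 (log2 fold change 0.67, adjusted p = 0.0457). RALF34, the ligand of THE1, named outside the rule, had 3323, 3313 and 3454 counts against 3319, 3406 and 3259. Of these tests 4 gave an unadjusted p under 0.05, and all 4 values were above 0 on the log2 scale. The share of all genes under that cut was not computed, so this count shows no shift of the list.

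Markers of pollen itself moved in the same direction as the 4 called kinases. All 16 of 16 mature pollen markers were called lower, against 5.59% of all genes tested, with a median log2 fold change of -6.16. Their summed level was 1092, 1523 and 1183 CPM in the wild type, against 50.8, 43.6 and 54.7 CPM in the libraries labelled naa50-1, 25.5-fold lower (22.9-fold without wild type replicate 2), and 0 of them were at 0 in all 3. This list too was chosen with earlier results known, and markers near 0 counts in the libraries labelled naa50-1 could only come out lower. The 4 markers with the smallest p were the pectin methylesterases PPME1 and VGD1, the proton pump AHA6 and the sugar carrier STP9. In whole buds, fewer cells of a type and less RNA per cell cannot be told apart, and the part of the pollen markers in the kinase results was not tested.

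Set against that marker sum, the 5 pollen tube kinases did not keep a common ratio. Per 1000 CPM of the markers, BUPS1 stood at 23.2 ± 3.67 CPM in the wild type, against 68.3 ± 2.11 in the libraries labelled naa50-1 (SD, n = 3), MARIS at 3.05 ± 0.351 and 9.40 ± 2.35, and BUPS2 at 4.98 ± 1.25 and 17.5 ± 11.8. ANX1 stood at 15.7 ± 1.26 and 300.6 ± 61.2, and ANX2 at 6.36 ± 1.45 and 0. The ligand RALF4 went the other way, from 16.2 ± 1.91 to 0.954 ± 0.988. The ratio to the markers was thus higher in the libraries labelled naa50-1 for ANX1, BUPS1, BUPS2 and MARIS, and lower for ANX2 and RALF4. It also rose outside the pollen tube kinases, for FER (177 ± 55.5 to 4769 ± 875), HERK1 (32.9 ± 12.1 to 855 ± 138) and THE1 (49.1 ± 16.9 to 1179 ± 35.2), because the marker sum fell. The marker AHA8 alone held 30.8 of the mean sum of 49.7 CPM in the libraries labelled naa50-1, against 103 of 1266 CPM in the wild type. These ratios were not tested.

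Tapetum markers gave no call over all 6 libraries. Of 11 tested, 0 were called lower and 0 higher by edgeR, and 0 had an unadjusted p under 0.05, with a summed level of 626.2 to 1086 CPM in the wild type, against 875.5 to 987.1 CPM in the libraries labelled naa50-1. CYP703A2, an enzyme of pollen wall precursors, had the smallest p (log2 fold change 0.42, adjusted p = 0.434), and without wild type replicate 1 it was called higher (0.80, adjusted p = 0.0212). Among 6 pistil markers, 1 was called lower, against 5.59% of all genes tested: CRC (log2 fold change -0.59, edgeR adjusted p = 0.00566). The summed level of the 6 was 138.1 to 182.5 CPM against 146.0 to 156.5 CPM.

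Among regulators of late pollen genes, 3 of the 5 MIKC-star MADS genes were called lower: AGL66 (78, 151 and 105 counts against 0, 0 and 1), AGL104 (148, 248 and 192 against 6, 3 and 9) and AGL94 (86, 152 and 132 against 40, 50 and 46). AGL30 and AGL65 did not pass (log2 fold changes -0.56 and -0.68, adjusted p = 0.0755 and 0.149), although DESeq2 called AGL30 lower. The summed level of the 5 was 42.0 to 61.4 CPM in the wild type, against 19.7 to 22.6 CPM in the libraries labelled naa50-1. The 3 LBD genes of microspores, LBD10, LBD22 and LBD27, were all called lower, with a summed level of 16.0 to 29.8 CPM against 0.849 to 1.15 CPM. Over all genes tested, 5.59% were called lower. Both lists were chosen with earlier results known. AGL66 and LBD10, at or near 0 counts in the libraries labelled naa50-1, could only come out lower.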

How the data were processed

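The submitters' processing notes name HISAT2 2.0.5 as a tool and TAIR10 as the build. The tool that counted reads, the annotation release and the use of strand are not given in the sources used. The authors deposited whole-number read counts per gene and FPKM values. The FPKM values deposited by the authors equalled counts divided by gene length and by 1 constant per library for at least 99.7% of the genes checked, within 0.1%. Only genes with many counts were checked, which left out ANX2, BUPS2 and MARIS. The authors' deposited table gives a log2 fold change and an adjusted p-value per gene, by an unnamed tool; its 12 columns of per-sample values, which repeat the counts and FPKM, were not used. Gene bounds equalled those of TAIR10.1 for 32532 of 32548 matched genes and for all 8 kinases.

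Counts were scaled by TMM, filtered with filterByExpr and tested in R 4.3.3 by edgeR 4.0.16 (quasi-likelihood test), genotype as the only term, Benjamini-Hochberg adjustment over 21196 genes and a threshold of 0.05, after the procedure had been tested on simulated counts. CPM are counts scaled by the TMM-adjusted library size. At totals of 19727584 to 20813563 counts, precision is limited for genes with few counts, and spread between replicates limits it for others as well. No library was a duplicate, since chi-square per degree of freedom between replicates of 1 group was at least 12.9. Deviations of same-numbered libraries from their group means correlated at -0.000211, 0.0585 and 0.102 across genes. Coding sequences were aligned with Biopython 1.88, and sequences were read from the RefSeq TAIR10.1 genome. Exonic windows of 50 bases and the 90-base coding windows were read from it, and the former were searched on both strands. Sequence upstream of the kinase genes is not reported here. Alternatives were other scalings and filters, DESeq2 1.42.0, limma 3.58.1 (voom, and log2(FPKM + 1) or log2(FPKM + 0.1)), a replicate block, and leaving out 1 library at a time.

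The kinases and all gene lists were chosen with earlier results of these data known. Named genes were the 8 kinases, NAA50, the nearest gene to each kinase and, from each list, all called members where 4 or fewer were called, otherwise the 4 with the smallest p, or the 1 with the smallest p where none was called.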

Additional observations from a re-analysis of the deposited data

How the results depend on the processing

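ANX2, BUPS1, BUPS2 and MARIS were called lower under all 16 alternatives, with adjusted p up to 0.00183, 0.00106, 0.0221 and 0.00172, and ANX1 under none of them (adjusted p 0.0786 to 0.257; log2 fold change -0.49 to -0.34). The labels do not say whether replicate numbers pair the libraries. With the replicate block, 4 of the 8 kinases and 1969 genes were called, against 2021 genes without it. With that block, ANX1 stood at -0.42 (edgeR adjusted p = 0.0789), BUPS1 at -3.09, BUPS2 at -2.86 and MARIS at -3.02. On log2(FPKM + 1) the falls were smaller because that scale compresses low values: -1.81 for ANX2, -2.27 for BUPS1, -1.26 for BUPS2 and -1.32 for MARIS. The direction of 2 uncalled kinases turned: HERK1 (0.08) ranged from -0.0925 to 0.2183 when each library was left out, and THE1 (-0.03) from -0.1555 to 0.1271, with 0.07 without naa50-1 replicate 2 and 0.0089 under library totals only; the cause was not tested. Genes called ranged from 1645 to 1926 with each library left out and from 1752 to 2395 (DESeq2) otherwise. BUPS2 and MARIS rest on 54 and 29 counts in the libraries labelled naa50-1, and at this depth 0 counts of ANX2 do not show that it is absent.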
